A study of Homo sapiens with 4 samples.

Results

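The genes described here are 10 mucus genes: the transmembrane mucins MUC1, MUC12 and MUC13, the secreted mucins MUC2, MUC5AC and MUC5B, the trefoil factors TFF1, TFF2 and TFF3, and AGR2. They were taken by gene name from the 58998 gene names of one RNA-seq table. The table holds 4 libraries of total RNA from human colorectal cell lines, 1 per condition: HT-29 control, HT-29 given sturgeon chondroitin sulfate (SCS) at 100 μg/mL for 24 h, and NCM460 without and with the same treatment. HT-29 is a colorectal cancer line and NCM460 a line from colonic epithelium without cancer, both cultured in medium with serum, of which the study's methods give NCM460 the larger share, and SCS is a sulfated glycosaminoglycan from sturgeon. The labels call the other libraries only control and do not say what they received. Each condition had 1 library, so no difference between conditions has a replicate check, and line or treatment cannot be told apart from the library. The study's methods report biological replicates for all experiments, but whether a library pools several cultures is not stated.

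Mucins are large glycoproteins whose repeats carry dense O-linked sugars. MUC2, MUC5AC and MUC5B are secreted and form gels, MUC2 being the main mucin of the colonic mucus layer, whereas MUC1, MUC12 and MUC13 span the membrane and line the cell surface. Trefoil factors are small secreted peptides that act with mucins in repair of the epithelium, TFF3 being the one made by intestinal goblet cells and TFF1 and TFF2 mainly gastric. AGR2 is a protein disulfide isomerase of the endoplasmic reticulum that mucin-producing cells need to fold their mucins.

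Of the 10 genes, 7 had at least 1 sequenced fragment in at least 1 library and 3, MUC2, TFF2 and TFF3, had none in any. MUC5AC and MUC5B stayed at 3 fragments or fewer in every library, which left 5 genes with more than that somewhere: MUC1, MUC12, MUC13, TFF1 and AGR2. In all, 124 fragments fell on the 10 genes in HT-29 control, 565 in HT-29 SCS, 44 in NCM460 control and 33 in NCM460 SCS. AGR2 alone gave 462 of the 565 fragments of HT-29 SCS, and the MUC1 locus gave all 33 of NCM460 SCS.

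**Figure D1:**
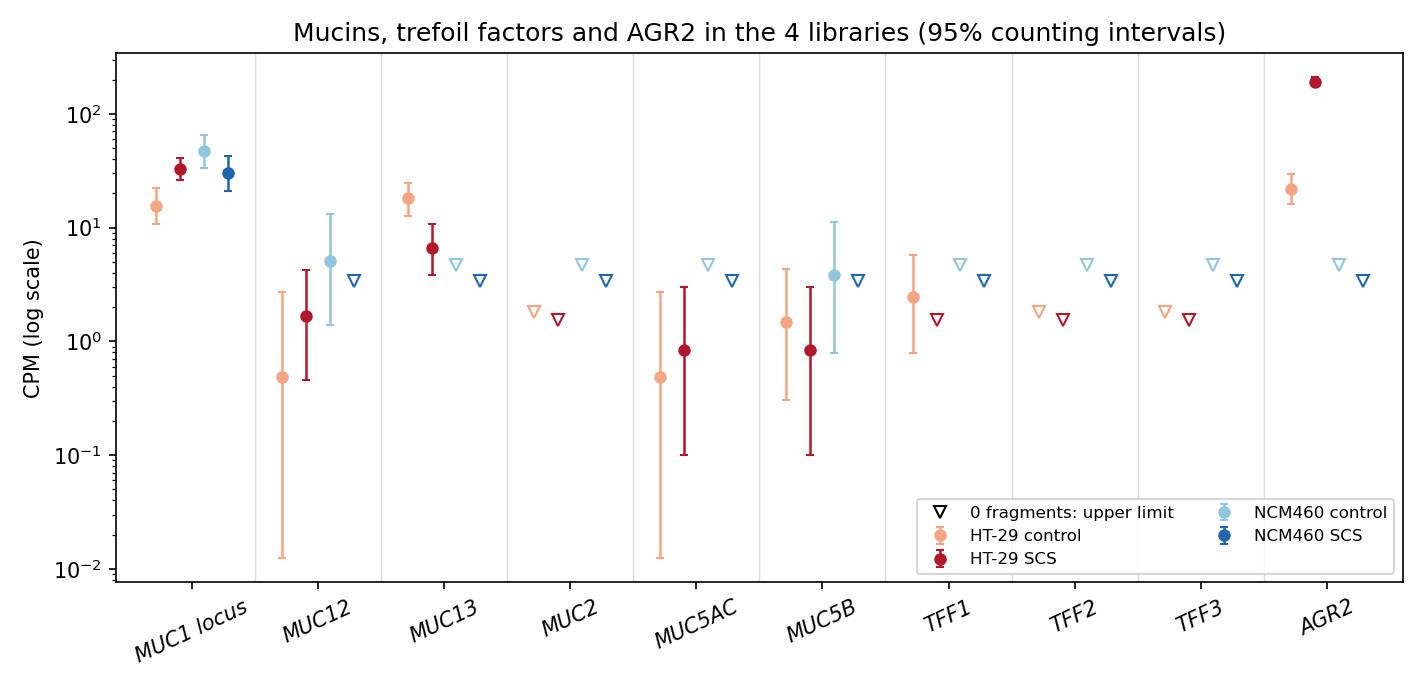
Level of each gene in each library as CPM, fragments scaled to library size, on a log axis, with exact 95% counting intervals. Open triangles mark 0 fragments, drawn at the upper end of the interval. AGR2 reached 192 CPM in HT-29 SCS against 22.0 in HT-29 control, while both NCM460 libraries were at 0. Only the MUC1 locus was read in all 4 libraries.

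The libraries held 1156568 to 1654764 fragments, of which 13.8% to 62.3% lay on the mitochondrial genome, leaving 507692 to 1383424 nuclear fragments. The mitochondrial share was 35.8% in HT-29 control and 13.8% in HT-29 SCS, and 62.3% in NCM460 control and 46.3% in NCM460 SCS. CPM stands for fragments scaled to a common library size, here after normalisation by the trimmed mean of M values (TMM). A count of 0 allows a level of up to 1.47 CPM in HT-29 control, 1.25 in HT-29 SCS, 3.85 in NCM460 control and 2.77 in NCM460 SCS, taken as 3 fragments per library. Intervals and limits cover counting error only. As a check of the labelled epithelium, EPCAM, KRT8, KRT18 and KRT19 were read in all 4 libraries, whereas KRT20, VIL1 and LGALS4 were read in HT-29 cells and had 0 fragments in NCM460 cells, and GPA33 had none anywhere. Of the colonic markers, CDX2 went the other way, with 0 fragments in both HT-29 libraries and 14 and 12 in NCM460 control and SCS, CDH17 had 1 fragment in HT-29 control and 0 elsewhere, and PHGR1 had 3 there and 0 elsewhere. SPARC, a marker of mesenchymal cells, had 65 and 102 fragments in NCM460 control and SCS and 0 in both HT-29 libraries, and the immune genes PTPRC, CD3E and CD14 had 0 in all 4, with ITGAM at 8, 4, 0 and 0 and CD68 in a locus shared with EIF4A1. Summed over 13 mesenchymal markers the level was 6.35 and 10.4 CPM in HT-29 control and SCS and 126 and 137 CPM in NCM460 control and SCS, with CDH2, COL1A2, COL3A1, DCN, LUM and TWIST1 at 0 in all 4 libraries. The part of these differences in the results was not tested.

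AGR2 was the mucus gene with the widest range. It had 45 fragments in HT-29 control, 462 in HT-29 SCS and 0 in each NCM460 library. These are 22.0 CPM (95% interval 16.0 to 29.4) and 192 CPM (175 to 211) in HT-29 cells, and the intervals of the HT-29 libraries lay far apart. Per transcript length the level was 9.87 FPKM in HT-29 control and 144 FPKM in HT-29 SCS. The table places AGR2 (ENSG00000106541) at chr7:16791811-16833433 on GRCh38. MUC13 (ENSG00000173702, chr3:124905442-124953819), a transmembrane mucin of the intestinal surface, was the other gene read in both HT-29 libraries and in neither NCM460 library. It had 37 fragments in HT-29 control and 16 in HT-29 SCS, or 18.1 CPM (12.7 to 24.9) and 6.66 CPM (3.81 to 10.8), and 5.86 and 1.59 FPKM.

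The sequence just upstream of the RefSeq starts of AGR2 and MUC13 is shown because these genes shared their line and moved in opposite directions with SCS. The AGR2 stretch is the 169 bases at chr7:16805081-16805249 and the MUC13 stretch the 250 bases at chr3:124934752-124935001, both on the minus strand of GRCh38.p14, within the span the table gives for each gene and free of GENCODE 29 exons on either strand; for AGR2, 81 bases nearer the start were left out because they hold an annotated exon.
AGR2: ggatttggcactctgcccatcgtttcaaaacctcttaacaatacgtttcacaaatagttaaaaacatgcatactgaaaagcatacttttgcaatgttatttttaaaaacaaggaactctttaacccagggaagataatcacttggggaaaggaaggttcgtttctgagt
MUC13: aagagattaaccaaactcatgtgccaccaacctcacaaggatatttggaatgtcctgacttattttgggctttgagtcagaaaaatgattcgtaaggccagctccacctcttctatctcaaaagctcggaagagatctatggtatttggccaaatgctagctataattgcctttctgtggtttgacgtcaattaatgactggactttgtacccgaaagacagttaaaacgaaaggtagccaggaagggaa
The letters searched on both strands were TATAAA for the TATA box, TGTTTNC for the core bound by FOXA factors, CCACG for one end of the endoplasmic reticulum stress element, GGGCGG for the box bound by SP1, and TTTATG for the core bound by CDX factors, and none of them contains another. Neither stretch held any of them, so no letters are in capitals. The 81 bases left out for AGR2, nearest its start, were not searched. Windows of the same length next to the start were read in 35116 RefSeq promoters. This is the place of the MUC13 stretch, but not of the AGR2 stretch, which lies further from its start. The TATA box was held by 7.41% at the AGR2 length and 10.7% at the MUC13 length, and the FOXA core by 10.6% and 15.5%. The stress element end was held by 25.6% and 33.5%, the SP1 box by 38.2% and 42.6%, and the CDX core by 6.35% and 9.64%. GC content was 36.1% for AGR2 and 41.6% for MUC13, and 6.16% and 15.6% of all promoters were lower in these windows. Promoters of 5 of the 10 genes are in the RefSeq set used here. TFF1 had no entry.

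The remaining transmembrane mucins were MUC1 and MUC12. MUC1 (ENSG00000185499, chr1:155185824-155192916) carries the same values in the table as its neighbours KRTCAP2 and RP11-201K10.3, so all values below belong to a locus of 3 genes and MUC1 itself was not resolved. The MUC1 locus had 32 fragments in HT-29 control, 79 in HT-29 SCS, 37 in NCM460 control and 33 in NCM460 SCS, or 15.6, 32.9, 47.5 and 30.5 CPM. HT-29 control lay below the other 3 libraries, and its interval (10.7 to 22.1 CPM) overlapped only that of NCM460 SCS (21.0 to 42.9). The FPKM values were 38.1, 82.7, 110 and 69.4. MUC12 (ENSG00000205277, chr7:100969623-101018949), a large intestinal surface mucin, had 1, 4, 4 and 0 fragments, and the intervals of its 4 libraries overlapped. Its FPKM was 0.0138, 2.10, 0.144 and 0, so 4 fragments stood for 2.10 FPKM in HT-29 SCS and for 0.144 in NCM460 control, and levels of MUC12 per length were not read.

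The secreted mucins were at or near 0. MUC2 had 0 fragments in all 4 libraries, and both of its rows carry the identifier of an alternate contig of chromosome 11 (ENSG00000278466). Whether fragments of the primary MUC2 locus were counted is not known, so its 0 was not read as a limit on its level. MUC5AC (ENSG00000215182, chr11:1157953-1201138), typical of stomach and airway, had 1 fragment in HT-29 control, 2 in HT-29 SCS and 0 in both NCM460 libraries. MUC5B (ENSG00000117983, chr11:1223066-1262172), typical of airway and salivary glands, had 3, 2, 3 and 0. For MUC5AC and MUC5B the counting intervals of the 4 libraries overlapped. The trefoil factor genes lie side by side on chromosome 21, and TFF1 (ENSG00000160182, chr21:42362282-42366594) was the only one read, with 5 fragments in HT-29 control (2.44 CPM, 0.793 to 5.70) and 0 in the other 3 libraries. TFF2 (ENSG00000160181, chr21:42346357-42351128) and TFF3 (ENSG00000160180, chr21:42311667-42315651) were at 0 throughout. At this depth a level below the limits given above could have gone undetected for MUC5AC, MUC5B or the trefoil factors.

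Per length, the order in HT-29 control was AGR2 at 9.87 FPKM, MUC13 at 5.86 and TFF1 at 5.45. The MUC1 locus was not ordered, since its FPKM belongs to 3 genes together. The counting intervals of AGR2 (7.20 to 13.2 FPKM) and MUC13 (4.13 to 8.08) overlapped, and that of TFF1 (1.77 to 12.7) covered both values. In HT-29 SCS it was AGR2 at 144 FPKM and MUC13 at 1.59, with MUC12 not ordered, and their intervals lay apart, at 131 to 157 FPKM for AGR2 and 0.906 to 2.58 for MUC13.

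For the comparisons, a gene was called higher or lower when it was past 1.5-fold with a 95% counting interval of the log2 fold change that excluded no change, among loci whose mean over the 2 libraries compared reached 1 CPM. Where a library had 0 fragments, the fold was taken against 3 fragments there and written as at least that fold, with the count of the other library as it stands. The interval also covers the counting error of that other count, so it allows smaller folds than these. All other fold changes carry a prior count of 2, which draws them toward no change, most at low counts. The intervals are of the counts without it. In bulk RNA, fewer cells that express a gene and less RNA per cell cannot be told apart. With SCS in HT-29 cells, 2 of the 6 mucus genes that passed this filter were called higher, 2 were called lower, and MUC5B and MUC12 were not called. Over all 12168 loci tested, 16.8% were called higher and 14.8% lower, so calls were common.

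AGR2 was 8.32-fold higher in HT-29 SCS, a log2 fold change of 3.06 (95% interval 2.68 to 3.60). The MUC1 locus was 2.02-fold higher, a log2 fold change of 1.01 (0.46 to 1.71). MUC13 was lower with a log2 fold change of -1.29 (-2.39 to -0.56). TFF1 went from 5 fragments to 0, which is at least 1.96-fold lower against 3 fragments, but its log2 interval ended at -0.11 and so allowed a change close to none, and it passed the filter only through the control library. Without TMM, on total counts alone, TFF1 was not called, while AGR2 (3.34), the MUC1 locus (1.29) and MUC13 (-1.06) were. Subtracting the trend of fold changes with GC content left the 4 calls in place, with AGR2 at 2.88. The mitochondrial share of the library moved with the treatment, and leaving that genome out before scaling gave log2 fold changes of 3.06 for AGR2, 1.01 for the MUC1 locus and -1.29 for MUC13.

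**Figure D2:**
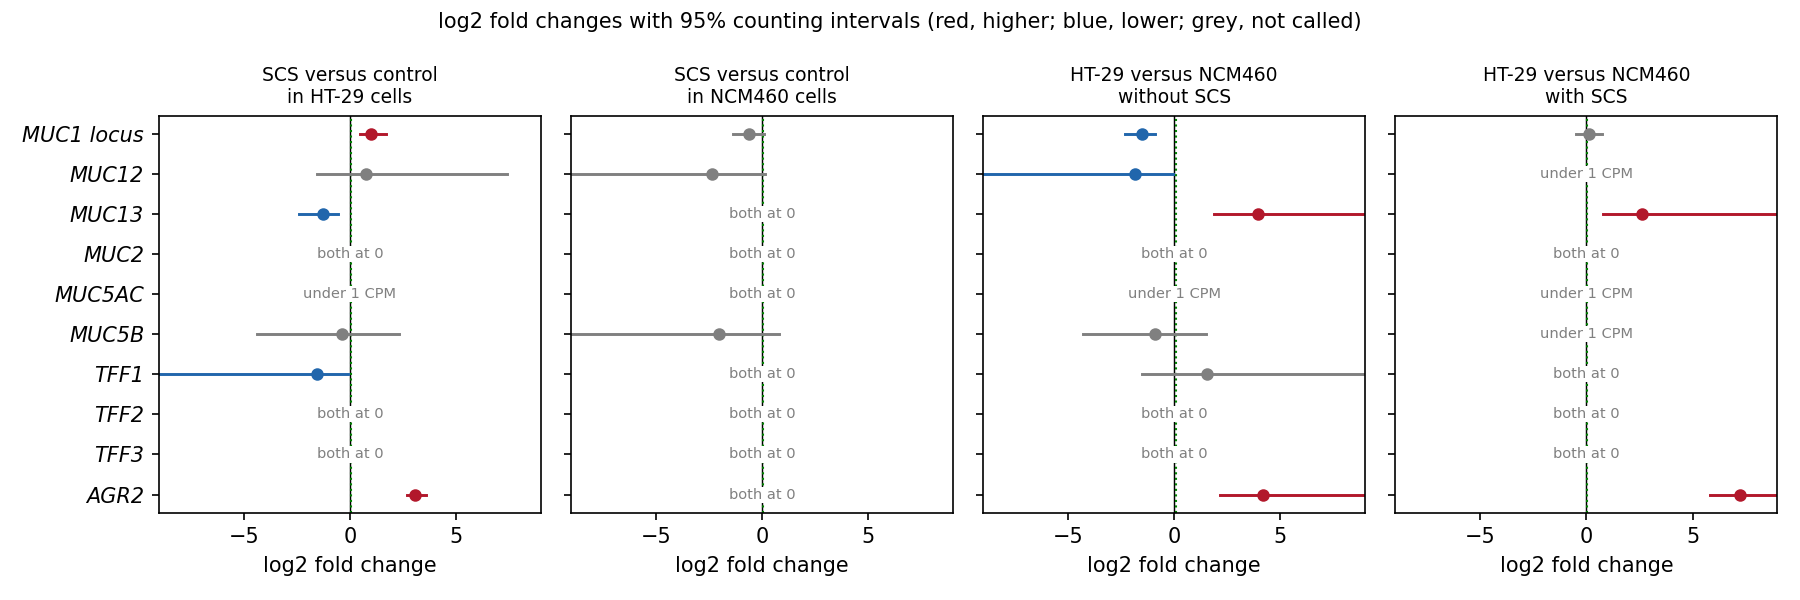
log2 fold changes (x axis) of the 10 genes (rows) in the 4 comparisons, with 95% counting intervals, cut at the edge of a panel where one group had 0 fragments. Red points were called higher, blue lower and grey neither, the dotted line is the median of all loci, and "under 1 CPM" marks genes whose mean was below the filter. AGR2 and the MUC1 locus lay to the right with SCS in HT-29 cells, and no gene was called with SCS in NCM460 cells.

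With SCS in NCM460 cells, 7 of the 10 genes had 0 fragments in both libraries and 3 passed the filter, of which 0 were called, against 15.4% of the 12657 loci tested called higher and 13.8% lower. The MUC1 locus had 37 fragments in control and 33 with SCS. Its log2 fold change was -0.62 (-1.36 to 0.08), and this turned to 0.053 on total counts alone and to 0.030 with the GC trend subtracted. MUC12 went from 4 fragments to 0 and MUC5B from 3 to 0, both with intervals that reached above no change (to 0.13 and 0.80). Fold changes in this pair of libraries followed GC content, with a Spearman correlation across 12600 loci of -0.63 against -0.12 in HT-29 cells, and subtracting the trend took the called loci from 3690 to 1508. Its part in the values was not tested beyond that subtraction. AGR2, MUC13 and the trefoil factors could not be compared in NCM460 cells. By the exact interval, levels up to 4.74 CPM in control and 3.41 CPM with SCS could have gone unseen.

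Between lines without SCS, 6 mucus genes passed the filter. AGR2 and MUC13 were called higher in HT-29 cells and the MUC1 locus and MUC12 lower, beside 25.3% higher and 23.1% lower of 12691 loci. AGR2, with 45 fragments against 0, was at least 5.71-fold higher in HT-29 control against 3 fragments, and with the error of the 45 included the log2 interval began at 2.16. MUC13, with 37 against 0, was at least 4.69-fold higher in the same sense, with an interval that began at 1.86. Fold changes in this pair of libraries also followed GC content, with a Spearman correlation of -0.50. Subtracting the trend took the called loci from 6144 to 4797. AGR2 and MUC13 stayed called, with intervals that then began at 1.08 and 1.23. The MUC1 locus was lower in HT-29 control, with a log2 fold change of -1.53 (-2.33 to -0.88), or -0.79 (-1.59 to -0.14) with the GC trend subtracted, but on total counts alone it was -0.48 and not called. MUC12, with 1 fragment against 4, was called lower at -1.87 (-9.02 to -0.06), and this call was lost on total counts alone (-1.13) and with the GC trend subtracted (-1.40). TFF1, with 5 fragments against 0, was not called, and MUC5B, with 3 against 3, was not called.

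Between lines under SCS, 3 mucus genes passed the filter, AGR2 and MUC13 were called higher in HT-29 cells, and 0 were called lower, beside 24.2% higher and 22.4% lower of 13050 loci. AGR2, with 462 fragments against 0, was at least 69.3-fold higher against 3 fragments, with a log2 interval that began at 5.81. MUC13, with 16 against 0, was at least 2.40-fold higher in the same sense, with an interval that began lower, at 0.80. The MUC1 locus, at 32.9 CPM in HT-29 SCS and 30.5 in NCM460 SCS, was not called (log2 fold change 0.10, -0.50 to 0.74). The bounds of AGR2 and MUC13 rest on HT-29 levels alone, and both genes passed the filter through HT-29 cells in both comparisons, which share no library with each other.

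The one test that the 4 libraries allowed was an additive model of line and treatment fitted to all loci with edgeR's quasi-likelihood test, which had 1 residual degree of freedom and takes the lines' unequal responses to SCS as its error. For the line term, 16.2% of 12942 loci passed an adjusted p of 0.05. AGR2 passed with an adjusted p of 6.34e-11 and MUC13 with 0.00155. Both had fragments in 2 of 2 HT-29 libraries and 0 of 2 NCM460 libraries, and entered the fit only through HT-29 cells. With both NCM460 libraries at 0 the model fits their counts in full, so these p-values do not measure the lines' unequal responses. The MUC1 locus (0.491), MUC12 (0.828) and MUC5B (0.939) did not pass. DESeq2's Wald test on the same model called neither AGR2 (adjusted p = 0.273) nor MUC13 (0.137). For the treatment term, which asks what SCS changed alike in HT-29 and NCM460 cells, 0.0695% of loci passed in edgeR and 0 of the 5 mucus genes in the fit were among them. DESeq2 gave these 5 genes no adjusted p for this term. At an unadjusted threshold of 0.05 the treatment term had 695 of the 12942 loci past it in edgeR and 230 in DESeq2. Of the 5 genes, 1, AGR2, was past it in edgeR's quasi-likelihood test and 0 in DESeq2. With 0 fragments in both NCM460 libraries, AGR2's treatment term rests on HT-29 cells alone, so it cannot show a change shared by the lines. The adjusted p of AGR2 in edgeR was 0.172, and it ranged from 0.0968 to 0.259 over edgeR's other settings.

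Genes with the same profile over the 4 libraries were looked for by the smallest distance between centred log2 CPM values, among loci averaging 10 CPM or more. AGR2 was nearest to FAM129A, with 52, 671, 1 and 1 fragments, to LCN2, the iron-binding lipocalin of inflamed epithelium, with 65, 694, 0 and 0, and to a locus of the aldo-keto reductases AKR1C1 and AKR1C3, with 159, 1128, 1 and 3. All 3 were read almost only in HT-29 cells and were higher under SCS there, which follows from picking them by AGR2's own profile. The MUC1 locus was nearest to GMPPA, with 32, 83, 39 and 34 fragments, to ARC and to B3GAT3. MUC5B was nearest to SLC2A1, ZMYM3 and FARS2, but with 8 fragments in all it has too few to read a profile.

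AGR2 works among the folding enzymes of the endoplasmic reticulum, so 13 genes of that machinery were read beside it. With SCS in HT-29 cells, 7 of the 11 tested were called higher and 0 lower, beside 16.8% and 14.8% of all loci. Their median log2 fold change was 0.76 against 0.07 over all loci. ERN1, the stress sensor IRE1, rose the most, from 30 to 309 fragments (log2 3.03, 2.59 to 3.72). HSPA5, the chaperone BiP, went from 855 to 4829 fragments (2.26) and XBP1, the factor whose mRNA IRE1 splices, from 319 to 860 (1.19), while PDIA4 had the smallest called change (0.71). In NCM460 cells 4 of 11 were called higher and 2 lower, beside 15.4% and 13.8% of all loci, with a median of 0.14 against 0.03. With the GC trend subtracted 2 were higher and 1 lower, beside 715 and 793 of 12600 loci, and the median was -0.19. HSPA5 was the highest in NCM460 cells, from 140 to 473 fragments (1.28). P4HB, a disulfide isomerase, was the lowest (-0.86, not called on total counts alone or with either trend, of GC or of expression, taken off). ERN1 had 16 and 17 fragments in NCM460 control and SCS, but its deposited FPKM was 18.5 and 1.76. In HT-29 control and SCS the FPKM of ERN1 was 4.03 and 19.8. AGR3, the neighbour and relative of AGR2, had 0 fragments in all 4 libraries, and ERN2, the form of IRE1 found in goblet cells, had 2, 1, 0 and 0.

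**Figure D3:**
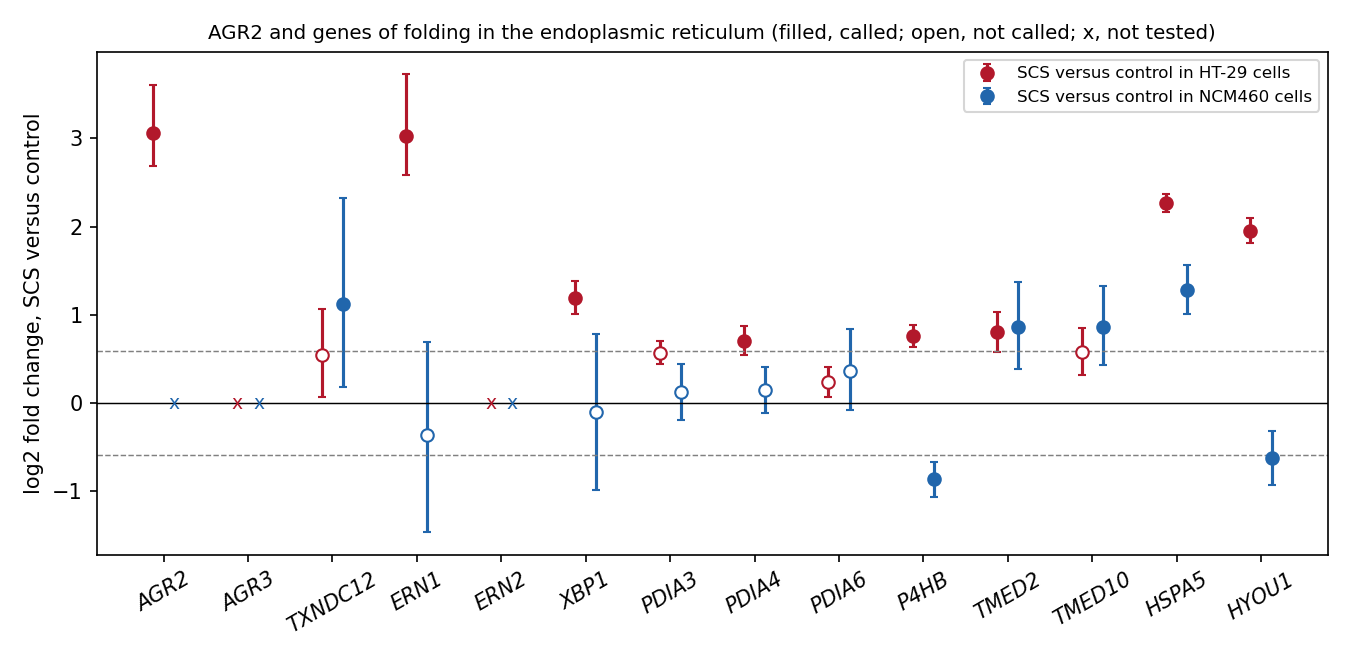
log2 fold change with SCS (y axis) of AGR2 and the 13 genes of folding and export in the endoplasmic reticulum in HT-29 cells (red) and NCM460 cells (blue), with 95% counting intervals; dashed lines mark 1.5-fold, filled points were called, and an x marks a gene not tested. AGR2 (3.06) and ERN1 (3.03) were the highest in HT-29 cells, where 0 of these genes were called lower.

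Between the lines without SCS, 6 of 11 genes of this machinery were called higher in HT-29 cells and 1 lower. Of all loci, 25.3% and 23.1% were. With SCS 8 of 11 were higher and 0 lower, beside 24.2% and 22.4% of all loci. The medians were 0.86 without SCS and 1.48 with SCS, against 0.10 and 0.05 over all loci. Subtracting the GC trend left fewer higher calls without SCS, 4 against 1 lower, and a median of 0.31. Over all loci that gave 2358 higher and 2439 lower of 12648. PDIA3 (0.31) and TMED2 (-0.35) then lost their higher calls, and TMED10 was called lower (-0.97). Total counts alone gave 9 higher and 0 lower without SCS, beside 6326 and 1106 over all loci. XBP1 differed the most in both comparisons, with log2 fold changes of 2.48 and 3.78. P4HB was the gene called lower without SCS (-0.71), and this call was lost on total counts alone (0.39) and with the GC trend (-0.017) or the expression trend (-0.22) subtracted. TMED2, of vesicle transport, had the smallest called difference with SCS (0.80), a call lost with the GC trend subtracted (0.51).

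Among 16 regulators of goblet cells and mucin genes, SCS in HT-29 cells went with 1 called higher and 4 lower of 11 tested. Of all loci, 16.8% and 14.8% were called so, and the regulators' median was -0.56 against 0.07 over all loci. On total counts alone the split was 2 and 2, beside 3148 higher and 1115 lower over all loci. FOXA2, which drives mucin genes in endoderm, was the one higher, from 4 to 24 fragments (log2 1.80, 0.81 to 4.34). SOX9, a factor of crypt progenitors, was the lowest, from 238 to 98 (-1.48, -1.87 to -1.17), and SPDEF, the factor of goblet cell maturation, went from 14 to 5 (-1.28, -3.54 to -0.16), which was not called on total counts alone. ATOH1, the factor that commits cells to the secretory lineage, and CDX1 and GATA4 had 0 fragments in all 4 libraries. In NCM460 cells 0 were called higher and 1 lower of 9 tested, beside 15.4% and 13.8% of all loci. The regulator called was FOXA3, from 10 to 4 fragments (-1.51), a call lost without TMM and with the GC trend subtracted. Without SCS, 4 of 12 regulators were called higher and 3 lower in HT-29 cells, with a median of 0.058, beside 25.3% and 23.1% of all loci. CREB3L1, a stress-responsive factor of secretory cells, was at least 15.6-fold higher in HT-29 control (123 fragments against 0), whereas CDX2, the intestinal homeobox factor, was at least 12.3-fold lower (0 against 14). Under SCS, 3 of 13 were higher and 2 lower, with a median of -0.43, beside 24.2% and 22.4% of all loci, with CREB3L1 at 97 fragments against 1 and CDX2 at 0 against 12.

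**Figure D4:**
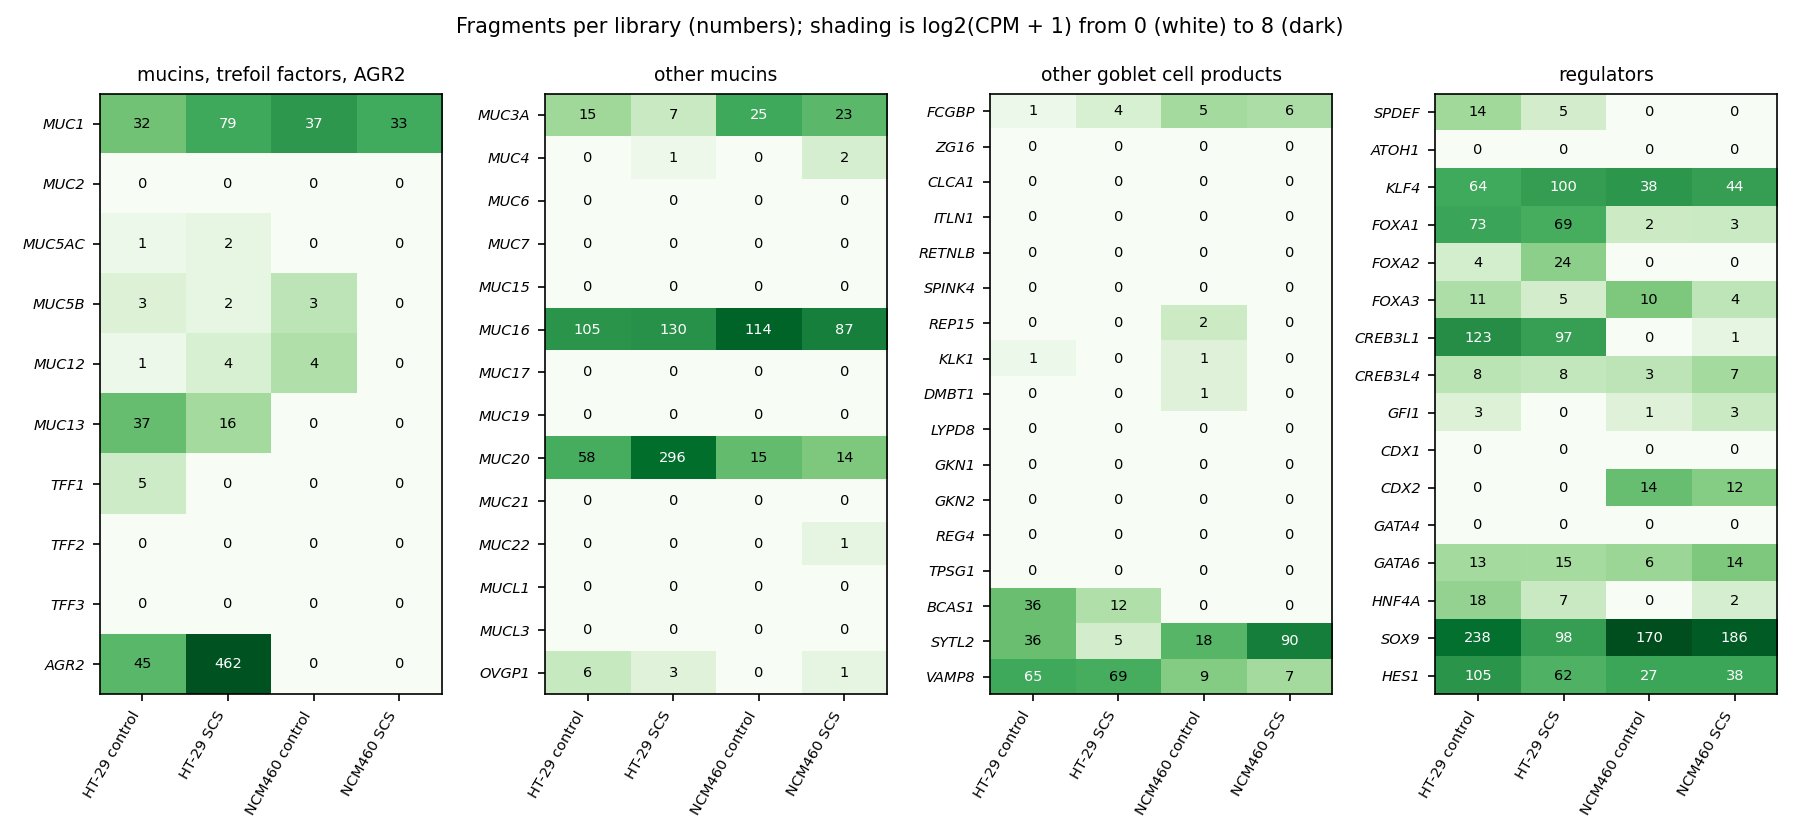
Fragments (numbers) of the 10 mucus genes, 14 other mucins, 17 other goblet cell and mucus products and 16 regulators (rows) in the 4 libraries (columns), shaded by log2(CPM + 1). AGR2 reached 462 fragments in HT-29 SCS, and 10 of the 17 other goblet cell products had 0 in all 4 libraries. MUC1 and MUC20 stand for loci shared with other genes.

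Of 14 other mucins, 8 had 0 fragments in all 4 libraries: MUC6, MUC7, MUC15, MUC17, MUC19, MUC21, MUCL1 and MUCL3. With SCS in HT-29 cells 1 of 4 tested was called higher and 0 lower, beside 16.8% and 14.8% of all loci. The median was -0.33 against 0.07 over all loci. The mucin called was the MUC20 locus, which rose from 58 to 296 fragments (log2 2.07, 1.71 to 2.55). It carries the same values as SDHAP2, LINC00969 and AC233280.3. MUC16, the large surface mucin known as CA125, had 105 and 130 fragments in HT-29 control and SCS, which was not called. In NCM460 control and SCS it had 114 and 87, which was called lower (-0.85, -1.28 to -0.45). This was the 1 call of 3 tested there, beside 15.4% of all loci called higher and 13.8% lower. That call was lost on total counts alone (-0.17) and with the expression trend subtracted (-0.52). MUC3A, an intestinal surface mucin, had 15, 7, 25 and 23 fragments and was the lowest in HT-29 against NCM460 cells both without SCS (-1.96) and with SCS (-2.43). The MUC20 locus was the one called higher in HT-29 cells under SCS (3.13). Without SCS 0 of 4 were higher and 2 lower, beside 25.3% and 23.1% of all loci. Under SCS 1 of 5 was higher and 1 lower, beside 24.2% and 22.4%.

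Of 17 other goblet cell and mucus products, 10 had 0 fragments in all 4 libraries: ZG16, CLCA1, ITLN1, RETNLB, SPINK4, LYPD8, GKN1, GKN2, REG4 and TPSG1. FCGBP, a protein bound to MUC2 in mucus, had 1, 4, 5 and 6 fragments. With SCS in HT-29 cells 2 of 4 tested were called lower and 0 higher (median -0.87), beside 14.8% and 16.8% of all loci. Called were SYTL2, of granule transport, from 36 to 5 fragments (-2.49) and BCAS1 from 36 to 12 (-1.59). The deposited FPKM of SYTL2 was 2.75 in HT-29 control and 2.76 in HT-29 SCS, so the fall in fragments was not seen per length. In NCM460 cells 1 of 4 was called higher and 0 lower, beside 15.4% and 13.8% of all loci. The gene called was SYTL2, from 18 to 90 fragments (1.79, 1.11 to 2.67) and from 15.7 to 26.8 FPKM. BCAS1 had 0 fragments in NCM460 cells and was at least 4.57-fold higher in HT-29 cells without SCS and at least 1.80-fold higher with SCS. SYTL2 was the lowest of the list between the lines under SCS (-4.66), when 2 of 4 were higher and 1 lower. Of all loci, 24.2% and 22.4% were. Without SCS 2 of 5 were higher and 1 lower, beside 25.3% and 23.1% of all loci.

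Listed were 26 enzymes that build and extend the O-linked sugars of mucins. Of 21 tested with SCS in HT-29 cells, 4 were called higher and 6 lower, beside 16.8% and 14.8% of all loci. Their median was -0.28 against 0.07 over all loci. Taking off the GC trend changed these calls to 2 and 5, beside 1763 and 1940 of 12106 loci. FUT3, the fucosyltransferase of Lewis antigens, was the highest, from 7 to 42 fragments (log2 interval 1.19 to 3.75), and ST3GAL1, which caps the core with sialic acid, the lowest, from 399 to 170 (-1.45). In NCM460 cells 5 were higher and 2 lower of 21 (1 and 1 with the GC trend subtracted), beside 15.4% and 13.8% of all loci. GALNT3, which starts the sugar chain, was the highest there (from 1 to 11 fragments, 2.16, not called with either trend subtracted). B3GNT3 was the lowest (from 16 to 3, -2.43). GCNT3, the core enzyme of mucin-secreting tissue, had 293, 598, 1 and 1 fragments and differed the most between the lines, with log2 fold changes of 5.82 (4.31 to 12.1) without SCS and 6.83 (5.59 to 13.4) with SCS. B3GNT7 was the lowest without SCS (0 fragments against 10, at least 8.76-fold lower) and ST6GALNAC2 with SCS (-2.19). Without SCS 7 of 20 were higher and 2 lower in HT-29 cells, beside 25.3% and 23.1% of all loci, and with SCS 8 of 23 were higher and 6 lower, beside 24.2% and 22.4%. On total counts alone these were 12 and 1 of 21, and 11 and 5 of 23. Over all loci that scaling called 6326 higher and 1106 lower without SCS, and 5345 and 1643 with SCS. B3GNT6, which makes the core of colonic mucin sugars, and ST6GALNAC1 had 0 fragments in all 4 libraries.

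Among 15 genes of receptors, partners and sheddases of trefoil factors and membrane mucins, 2 were called higher and 3 lower of 11 with SCS in HT-29 cells, a median of -0.29 against 0.07, beside 16.8% and 14.8% of all loci. On total counts alone the split was 2 and 0, beside 3148 higher and 1115 lower over all loci. ADAM17, a protease that sheds MUC1 from the surface, was the highest, from 78 to 251 fragments (1.42, 1.08 to 1.84), and ERBB2, a receptor kinase that pairs with membrane mucins, the lowest (-0.66), which was not called on total counts alone (-0.39). In NCM460 cells 3 were higher and 2 lower of 12 (1 and 0 with the GC trend subtracted), beside 15.4% and 13.8% of all loci. F2RL1, a protease-activated receptor, was the highest there (from 13 to 60, 1.66). ERBB2 was the lowest (-0.75, a call lost on total counts alone and with either trend subtracted). Between the lines 6 of 12 were higher and 2 lower in HT-29 cells without SCS, beside 25.3% and 23.1% of all loci. ADAM10 led (2.46) and GRB2 was the lowest (-0.66, turning to 0.42 on total counts alone). With SCS 4 of 11 were higher and 3 lower, beside 24.2% and 22.4%. ADAM17 led (2.01) and MMP14 was the lowest (-1.48, not called on total counts alone). CXCR4, a receptor for TFF2, had 0, 0, 3 and 2 fragments, and ACKR3 and LINGO2, proposed receptors of TFF3, had 0 in all 4 libraries.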

How the data were processed

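RNA-seq was done on HT-29 and NCM460 cells without and with SCS at 100 μg/mL for 24 h, 1 library each, sequenced as paired-end reads on an Illumina instrument. The submitters' processing notes name bcl2fastq 2.17.1.14, cutadapt 1.9.1, Bowtie2, HTSeq 0.6.1 and the build hg19, and the positions in the table are GRCh38. Per the study's methods, CASAVA extracted the reads and Cuffdiff tested differential expression; the roles of the other tools are not given in the sources used here. The authors deposited 2 kinds of value per gene: a signal, which is the fragment count after division by that library's size factor, and FPKM, scaled by length and library.

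A fragment was worth 0.686, 0.577, 2.04 and 1.33 of the deposited signal in HT-29 control, HT-29 SCS, NCM460 control and NCM460 SCS, and 99.9% to 100% of values were whole multiples within 0.1, so whole fragments were recovered. The test design had been written for counts, and the recovered fragments were used. Adjacent rows with identical values were merged, giving 18650 loci, of which 1812 held more than 1 gene. Rows without a gene name (0.0403% to 0.0942% of fragments) stayed out. Libraries were scaled by TMM (edgeR 4.0.16 in R 4.3.3). log2 fold changes used a prior count of 2, and 95% intervals were exact (Clopper-Pearson, scipy 1.17.1). The additive model used edgeR with Benjamini-Hochberg adjustment over 12942 loci, and DESeq2 1.42.0 as the alternative. A locus at 0 was set to 3 fragments per library for bounds. Alternatives were other scalings, prior counts and filters, trends with GC content (GENCODE 29 transcripts, 98.9% of loci) or expression subtracted by lowess with span 0.3, and the deposited FPKM with pseudocounts of 1 and 0.1. Scripts were tested on simulated data.

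The 10 genes and the lists beside them were chosen with earlier results of these data known. Named from each list were the called genes with the highest and lowest fold change in each comparison, at 10 or more fragments in the 2 libraries, and the genes at 0 in all 4 libraries; other genes named were chosen after their values were seen. Where no called gene met this in a direction, none is named. Sequences are from RefSeq. Some genes of these lists are not reported here and stayed out of the lists' counts.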

Additional observations from a re-analysis of the deposited data

Results flagged for a closer look

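The MUC1 locus had values of opposite sign with SCS in the lines, a log2 fold change of 1.01 in HT-29 cells and of -0.62, not called, in NCM460 cells. With 1 library per condition the difference was not tested, the NCM460 value turned to 0.030 with the GC trend subtracted, and the locus also holds KRTCAP2.

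MUC12 likewise had values of opposite sign, log2 fold changes of 0.74 in HT-29 cells and -2.34 in NCM460 cells. These rest on 1 and 4, and on 4 and 0 fragments, neither was called, and the difference was not tested.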

How the results depend on the processing

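No paired analysis was possible because each condition has 1 library and the labels give no replicate numbers to pair by (the additive model takes the line as a term), so leaving out a replicate was not possible either. In HT-29 cells AGR2, the MUC1 locus and MUC13 kept their direction under all 11 alternatives run for each and their call under the 9 that give one, and on FPKM, at both pseudocounts and with no interval, they stayed past 1.5-fold; AGR2 ranged from 2.88 to 3.85 on the log2 scale, the highest on FPKM. Genes called lower there fell from 2 to 1 on total counts alone and with a mean of at least 5 CPM. Genes called lower in NCM460 cells went from 0 to 1 with DESeq2 size factors (the MUC1 locus, -0.72) and to 2 with the authors' own scaling, chosen after seeing the data (the MUC1 locus, -0.76, and MUC12, -2.47). The MUC1 locus reversed there to 0.053 on total counts alone and 0.030 with the GC trend subtracted, which also left 1508 of 3690 loci. Between lines without SCS, genes called lower went from 2 to 0 on total counts alone and to 1 with a mean of at least 5 CPM, the GC trend or the expression trend subtracted, and MUC5B reversed to 0.16 with the GC trend. Under SCS, genes called higher went from 2 to 1 with a mean of at least 5 CPM, since MUC13 was then not tested, and the MUC1 locus reversed to -0.13 with the expression trend subtracted. The line term called 864 loci and 0 mucus genes in DESeq2 and 3351 loci on total counts alone, against 2099, and the SCS term 27 and 17, against 9. Total counts alone moved the median of all loci by 0.25, 0.56, 0.94 and 0.59 in the 4 comparisons as ordered above, with 26.2%, 5.91%, 14.9% and 23.5% of calls lower against 46.9%, 47.3%, 47.7% and 48.1%. Except where a filter removed a gene, the cause was not tested. Depth limits the secreted mucins and trefoil factors, at 5 fragments or fewer, and 1 library per condition limits all comparisons.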
